A study of Mus musculus with 16 samples.

Results

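The TSS line, in which a mouse *Sox2* transgene was on, was set against SWT cells, in which human wild-type SOX2 stood in for it. Its members are the 2 TSS arrays and the 4 SWT arrays, which are 6 of the 16 Illumina mouse bead arrays of the series, and they were taken by their labels. All lines were ESCs (embryonic stem cells) of the 129/Ola background without a working *Sox2* gene of their own. They carried a mouse *Sox2* transgene that doxycycline shuts off through a tet transactivator, and they also expressed DsRed, which makes them fluoresce red. TSS cells received no doxycycline, so that the mouse transgene stayed on. SWT cells also carried human SOX2 in a hygromycin-resistant PiggyBac plasmid, delivered with a transposase by lipofection, and grew in 1 µg/mL doxycycline, with 300 µg/mL hygromycin to select for the plasmid, until colonies were picked and expanded as clones 4 and 5. The other 10 arrays came from 2 S113 and 3 S95 clones, made like SWT with mutant SOX2. The study's own account gives the profiled clones of the last set by another mutation than their labels do, so which mutant the S95 clones carry is not settled. TSS is 1 line with 2 arrays, each SWT clone has 2 arrays, and no label says whether the 2 arrays of a line hold separate cultures, so p-values measure only the spread between these lines. Hygromycin is not stated for TSS. The species of SOX2, its construct, doxycycline, transfection, selection and cloning all differ between TSS and SWT, and their parts in any difference cannot be told apart.

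SOX2 is an HMG-box transcription factor that binds DNA beside OCT4 at enhancers of pluripotency genes such as *Nanog*, *Utf1* and *Fgf4*, and ESCs that lose it differentiate, largely towards trophectoderm. The interferon response, which had the highest median difference of the 28 gene lists read here, is the antiviral programme that begins when interferons bind their receptors. The kinases JAK1 and TYK2 then activate STAT2, which acts with IRF9 in the complex ISGF3, and ISGF3 binds the interferon-stimulated response element in the promoters of antiviral genes.

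Both groups carried ESC markers. All 6 embryonic stem cell markers were detected on every TSS and SWT array, where detection means that a probe was brighter than control probes at p under 0.05. Their summed intensity was 20810 to 20870 on TSS arrays and 15310 to 17710 on SWT arrays. The summed level of 9 fibroblast markers was 283 to 286.6 in TSS and 247.3 to 311.2 in SWT, that of 6 extraembryonic endoderm markers 887.6 to 921.3 in TSS and 382.9 to 1062 in SWT, and that of 5 trophectoderm markers 192.9 to 201.8 in TSS and 123.2 to 139.4 in SWT. That of the 4 neuroectoderm markers with a probe was 108.6 to 108.9 in TSS and 115.2 to 140 in SWT. In RNA of whole cultures, fewer cells of a type and less RNA per cell cannot be told apart. Of the defining markers, *Gata6*, *Dab2* and *Pdgfra* (endoderm), *Krt7* and *Gata3* (trophectoderm) and *Nes* (neural cells) were detected on all 6 arrays. Their TSS minus SWT differences (log2) were 0.29, 1.74, -0.44, 0.59, -0.15 and -0.11. *Cdx2* (trophectoderm) was detected on both TSS arrays and no SWT array. *Gata4*, *Elf5*, *Hand1* and *Pax6* (endoderm, trophectoderm and neural cells) were detected on none of the 6. Before normalization, TSS arrays were brighter, with a median intensity of 114.6 to 115.3 and 51.9% to 52.5% of probes detected, against 102.5 to 108.6 and 48.6% to 49.1% on SWT arrays, and the part of this in the differences below was not tested.

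The probe for *Sox2* itself, on chromosome 3, read 6.49 and 6.28 in TSS, against 5.08 and 4.47 in SWT clone 4 and 5.16 and 4.60 in SWT clone 5 (log2 intensity after normalization, as are all levels below). Both TSS arrays lay above all 4 SWT arrays, 2 of which did not detect the probe, and the difference was 1.56 ± 0.49 (SE, limma adjusted p = 0.41), or 0.81 to 2.64 under the other scalings tried. The S113 clones, at 7.67 and 8.04, read above TSS. Whether this probe reads the mouse transgene, the human construct or both is not known, since the files do not give its position, so it does not check the labels.

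Across 10001 genes, TSS stood farther from each SWT clone than the SWT clones stood from each other. The root mean square difference was 0.48 between TSS and SWT clone 4 and 0.43 between TSS and SWT clone 5, with 444 and 328 genes at least 2-fold apart, against 0.31 and 127 genes between the SWT clones. S113 clone 4 stood nearer to SWT clones 4 and 5 than TSS did, at 0.39 and 0.42. S113 clone 5 stood farther, at 0.51 and 0.52, with 468 and 560 genes at least 2-fold apart. No gene passed an adjusted p of 0.05 in limma (0% of genes, smallest adjusted p = 0.23), while 983 had an unadjusted p under 0.05 (9.83%), 489 of them higher (4.89%) and 494 lower (4.94%) in TSS. TSS read at least 2-fold above SWT for 164 genes (1.64%) and at least 2-fold below for 164 (1.64%), and for all of these both TSS arrays lay beyond all 4 SWT arrays. When arrays were shifted to equal medians and not quantile normalized, which moved the median of all genes to 0.13, the split was 308 above and 69 below. Both TSS arrays lay above all 4 SWT arrays for 24.2% of genes and below them for 25.4%. They lay above all 14 arrays of the 7 doxycycline-treated clones for 6.28% and below them for 4.73%, which is 628 and 473 genes. Each clone set against all other lines in the same way gave 287 to 1923 genes above and 208 to 2058 below. For SWT clone 4 the counts were 543 and 398, so such counts are not particular to TSS. The test took the spread from the 7 clones, because 1 line has none of its own, and a permutation of 1 line against 2 cannot go below p = 0.33. When the 16 arrays entered a fit with the line as a random block, 43 genes passed with TSS higher (0.43%) and 52 with TSS lower (0.52%).

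**Figure D1:**
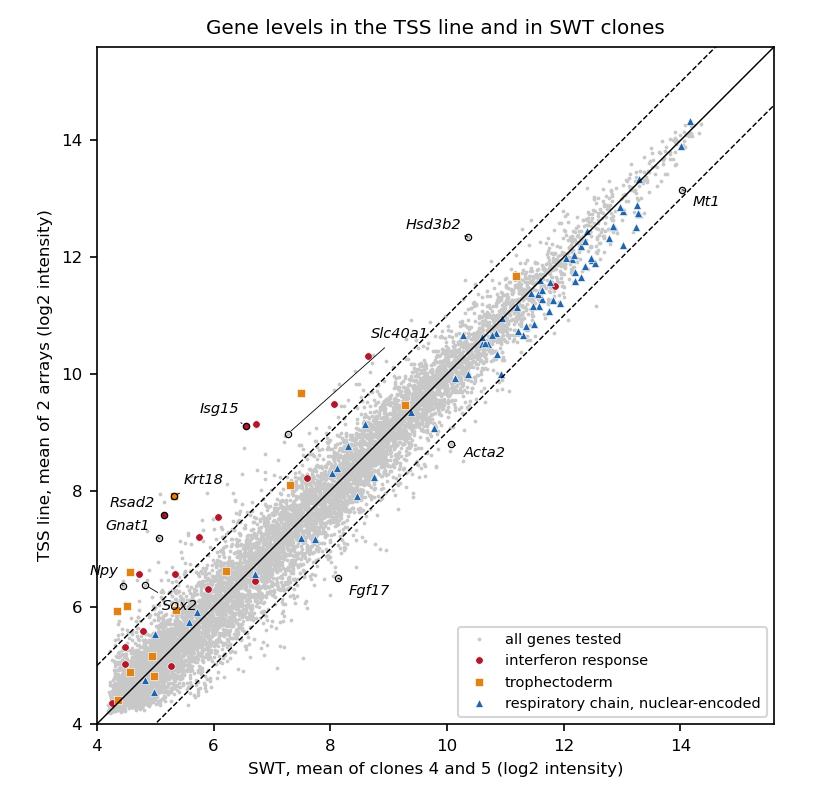
Mean log2 intensity of 10001 genes in the TSS line (vertical axis, 2 arrays) and in SWT (horizontal axis, clones 4 and 5), with the line of equality and dashed lines at a 2-fold difference. Interferon response genes (red) lie mostly above equality and many beyond the upper dashed line, trophectoderm genes (orange) lie near or above equality, and respiratory chain genes (blue) lie mostly just below it. Open circles mark the labelled genes.

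Antiviral genes of the interferon response read higher in TSS than in SWT. Of 18 members tested of 23 listed, 9 read at least 2-fold higher and 0 at least 2-fold lower, against 1.64% of all genes each way. For 14 of 18, both TSS arrays lay above all 14 arrays of the other 7 clones, against 6.28% of all genes. Among these, *Oas1a* was detected on both TSS arrays and 1 clone array, so it passed the detection filter only through TSS. The median difference was 1.03, against 0.00 over all genes, and between 0.60 and 1.67 under the other scalings. None of the 18 passed the adjusted test, and 9 had an unadjusted p under 0.05, all with TSS higher (4.89% of all genes). With 16 arrays and the line as a random block, *Rsad2*, *Ddx58* and *Mx2* passed with TSS higher, as 0.43% of all genes did.

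The promoters of these genes are shown because ISGF3 and the IRF factors act through such an element. Its core was searched as GAAANNGAA on both strands in 250 bases before and 50 bases after each annotated start (RefSeq, GRCm38.p6), with overlapping matches counted. It was found in 8 of the 16 tested members that have a promoter in the table (50%), against 8.28% of all tested genes with a promoter and 8.56% of all promoters. The 8 include *Ifitm3*, which read lower in TSS (-0.34), while the 4 promoters below belong to members that read higher. A match is a description of the sequence only. In the 4 promoters below, printed 5′ to 3′ on the strand of the gene, capitals mark the matches. *Isg15* (chr4:156200769-156201068, minus strand) holds 3 overlapping matches that begin 78, 72 and 66 bases before the start, *Rsad2* (chr12:26456403-26456702, minus strand) holds 1, *Ifit3* (chr19:34583279-34583578, plus strand) holds 3, and *Bst2* (chr8:71537423-71537722, minus strand) holds 2.
Isg15: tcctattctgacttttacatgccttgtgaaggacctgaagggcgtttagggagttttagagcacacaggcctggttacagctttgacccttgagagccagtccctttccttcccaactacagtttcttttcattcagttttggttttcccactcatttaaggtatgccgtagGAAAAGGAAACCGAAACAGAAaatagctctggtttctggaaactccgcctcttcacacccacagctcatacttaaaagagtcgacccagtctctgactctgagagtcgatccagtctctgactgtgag
Rsad2: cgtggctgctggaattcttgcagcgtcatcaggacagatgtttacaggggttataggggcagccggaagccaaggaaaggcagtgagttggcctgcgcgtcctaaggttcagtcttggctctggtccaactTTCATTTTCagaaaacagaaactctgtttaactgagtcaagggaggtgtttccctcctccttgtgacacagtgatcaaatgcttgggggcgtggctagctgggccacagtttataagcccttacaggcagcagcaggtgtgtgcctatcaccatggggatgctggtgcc
Ifit3: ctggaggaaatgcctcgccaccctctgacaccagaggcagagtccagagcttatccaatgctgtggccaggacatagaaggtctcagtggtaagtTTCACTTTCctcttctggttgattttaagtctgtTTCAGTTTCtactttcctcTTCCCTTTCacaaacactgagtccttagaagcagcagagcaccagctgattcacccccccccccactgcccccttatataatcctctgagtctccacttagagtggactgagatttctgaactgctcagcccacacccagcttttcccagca
Bst2: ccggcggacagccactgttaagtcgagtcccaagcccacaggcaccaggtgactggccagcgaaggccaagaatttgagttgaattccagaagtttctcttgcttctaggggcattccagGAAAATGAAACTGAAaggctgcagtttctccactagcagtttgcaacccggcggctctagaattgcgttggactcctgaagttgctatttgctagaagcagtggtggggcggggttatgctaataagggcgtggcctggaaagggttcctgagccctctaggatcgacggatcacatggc

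Among the effectors, *Isg15*, a ubiquitin-like modifier, read 9.09 and 9.13 in TSS, against 5.40 and 5.63 in SWT clone 4 and 7.53 and 7.62 in SWT clone 5. The TSS arrays lay 1.47 above the highest of the 14 clone arrays, and the difference from SWT was 5.9-fold, or 2.56 ± 1.00 (log2, SE, limma adjusted p = 0.485). *Rsad2*, which encodes the antiviral enzyme viperin, read 7.55 and 7.60 in TSS, against 4.87 and 4.79 in SWT clone 4 and 5.42 and 5.54 in SWT clone 5. TSS was 5.36-fold higher (2.42 ± 0.41, SE, limma adjusted p = 0.285). The groups did not overlap, which was part of a rule that chose this gene. *Mx2*, a GTPase that restricts viruses, read 6.54 and 6.61 in TSS and 4.24 to 5.53 on SWT arrays, 2 of which did not detect it. *Bst2*, the tetherin that holds budding virions at the cell surface, read 10.22 and 10.40 in TSS and 7.80 to 9.41 on SWT arrays. *Oas1a*, which makes the activator of RNase L, was detected on no SWT array and was at least 1.51-fold higher in TSS, where a bound sets each SWT array at its lowest detected signal. *Ifi35* differed by 0.80 ± 0.22 and *Ifit3* by 1.22 ± 0.48 (SE). *Ifit2*, *Ifitm1* and *Ifitm3* stood on the other side, with differences of -0.28, -0.26 and -0.34, and *Isg20* was detected on no TSS and no SWT array.

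Genes that act upstream of these effectors were read by role. *Stat2* and *Ddx58*, at least, also belong to the interferon list counted above, so these readings partly repeat it. The table of pathway roles used here was drawn up after the effectors' values were seen. No interferon gene was detected on both TSS arrays: 8 of 10 searched had a probe, and 1 of them, *Ifna1*, was detected on 1 TSS array and 2 SWT arrays. Among the receptor genes, *Ifnar2* read 4.92 in TSS and 4.87 and 4.92 in SWT clones 4 and 5, and the probe for *Ifnar1* was detected on no array. Of 8 signalling genes tested, 6 read above all SWT arrays and 0 below, against 24.2% and 25.4% of all genes. They were *Jak1* (0.40), *Jak2* (1.04), *Stat2* (0.41), *Irf9* (0.62), *Irf3* (0.35) and *Irf7* (0.55), each as TSS minus SWT on the log2 scale. *Irf7*, which amplifies interferon expression, was detected on both TSS arrays and on none of the 14 clone arrays. It therefore passed the detection filter only through TSS, the group where it read high. *Ddx58*, which encodes the RNA sensor RIG-I, read 7.50 and 7.58 in TSS, against 5.72 and 5.46 in SWT clone 4 and 6.52 and 6.61 in SWT clone 5. *Usp18*, the protease that removes ISG15 and dampens receptor signalling, read 9.46 and 9.50 in TSS, against 6.81 and 6.89 in SWT clone 4 and 9.33 and 9.27 in SWT clone 5, so TSS stood near clone 5 and far above clone 4. Of the other inhibitors, *Socs1* differed by 0.39 with TSS above all SWT arrays, and *Socs3* by -0.38 with TSS below all of them.

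The SWT clones themselves differed in this response. Clone 5 read above clone 4 for 16 of 18 members and at least 2-fold above for 5. Over all 10001 genes and in either direction, 127 were at least 2-fold apart between these clones. Against clone 4 alone, TSS was at least 2-fold higher for 10 members with a median of 1.31, and against clone 5 alone for 5 members with a median of 0.66. Over all genes, TSS was at least 2-fold from clone 4 for 444 and from clone 5 for 328, both directions together. Of the mutant clones, S95 clone 1 came nearest to TSS for *Bst2* (10.22 and 10.40 in TSS, 9.77 in that clone) and *Oasl2* (9.16 and 9.11 in TSS, 8.34 in that clone). Another 4 interferon-inducible genes outside the list, chosen after their values were seen, had both TSS arrays above all 14 clone arrays: *Parp14* (8.18 and 8.33 in TSS, 4.44 to 6.63 in SWT), *Cmpk2* (1.38 ± 0.25, SE), *Gbp3* (1.53 ± 0.53) and *Oas2* (1.33 ± 0.50). *Gbp2* and *Gbp2b*, near-identical GTPases whose probes may each read both genes, differed by 2.66 and 2.85 from SWT, but while their levels on TSS arrays were 7.76 to 7.98, S95 clones 1 and 4 read 7.87 to 8.30.

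**Figure D2:**
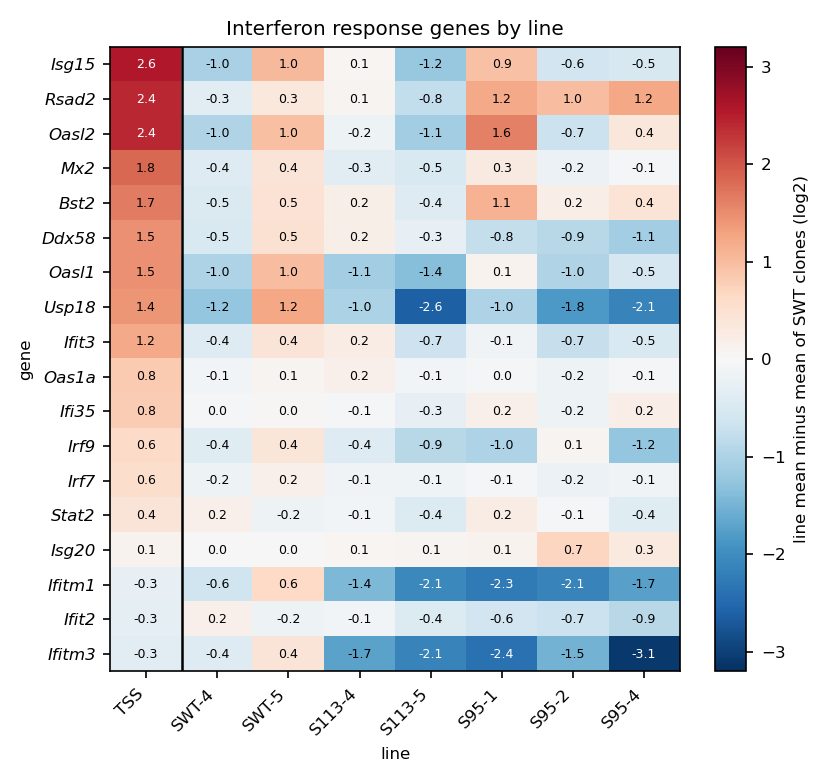
Mean log2 intensity of 18 interferon response genes (rows) in each of the 8 lines (columns, TSS first, left of the vertical line), as the difference from the mean of the SWT clones, with each value printed. TSS holds the highest value for 14 of the genes, and SWT clone 5 lies above SWT clone 4 for 16.

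The 12 genes with the smallest p among those at least 2-fold higher in TSS included the interferon response gene *Rsad2*, given above, and genes of other roles. That TSS lay above all SWT arrays was part of the rule that chose them. *Npy*, the neuropeptide Y gene, read 6.35 and 6.40 in TSS, against 4.35 and 4.41 in SWT clone 4 and 4.56 and 4.48 in SWT clone 5. No SWT array detected it, 1 of 14 clone arrays did, and TSS was at least 3.13-fold higher (limma adjusted p = 0.23). *Gnat1*, the rod transducin alpha subunit, read 7.18 and 7.19 in TSS, against 4.97 and 4.78 in SWT clone 4 and 5.16 and 5.37 in SWT clone 5. It had the largest gap to the other lines, 1.81 above the highest of the 14 clone arrays. *Hsd3b2*, a steroid dehydrogenase gene, was abundant in every line and read 12.31 and 12.38 in TSS, against 10.28 and 10.36 in SWT clone 4 and 10.48 and 10.31 in SWT clone 5, a 3.97-fold difference (limma adjusted p = 0.28). Its mutant clones, at 11.24 to 11.82, lay between TSS and SWT.

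Other genes of this set had roles outside ESCs. *Tgm3*, an epidermal transglutaminase, was detected on both TSS arrays and on no other array, and was at least 1.64-fold higher in TSS. *Spink10*, a Kazal-type protease inhibitor, read 6.68 and 6.47 in TSS and 4.30 to 5.05 on SWT arrays, of which 1 detected it. *Lgals1*, which encodes galectin 1, read 10.08 and 10.04 in TSS and 8.15 to 8.83 on SWT arrays, but 11.49 to 11.63 in the S95 clones. *Cd274*, the immune checkpoint ligand PD-L1, differed by 1.77 ± 0.24 (SE), and its TSS arrays lay above all 14 clone arrays. *Prr15* (2.00 ± 0.30), *Vps35l*, a subunit of an endosomal sorting complex (1.46 ± 0.23), and *Spag6l*, a sperm tail gene (1.10 ± 0.18), also lay above all 14. *Dmkn*, a gene of stratified epithelia, was at least 1.98-fold higher in TSS than in SWT, while 1 of its other 2 probes differed by -0.16. *1700016D06Rik* had a gap of 1.27 above the 14 clone arrays. *Npy*, *Tgm3*, *Spink10* and *Spag6l* passed the detection filter only through TSS, the group where they read high.

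Both TSS arrays lay beyond all 14 clone arrays for 46 of the 164 genes at least 2-fold lower and 72 of the 164 at least 2-fold higher. Of all genes, 4.73% lay below and 6.28% above those arrays. For 101 of the 164 lower and 85 of the 164 higher genes, every S113 and S95 line lay on the TSS side of the SWT mean. The same SWT mean chose these genes, so a gene with an extreme SWT level tends to give this placement. The share over all genes was not counted, and nothing is concluded from these counts. Among the 12 lower genes with the smallest p, *Hsd17b1*, a steroid dehydrogenase gene, was the one with TSS below all 14 clone arrays, with a gap of -0.06 to the lowest of them. *Fgf17*, a fibroblast growth factor, read 6.44 and 6.55 in TSS, against 8.25 and 8.44 in SWT clone 4 and 7.88 and 7.97 in SWT clone 5, and its S113 clones stood level with TSS at 6.56 and 6.52. *Col9a2*, a collagen chain of cartilage, read 5.45 and 5.26 in TSS and 6.69 to 7.10 on SWT arrays. *Piwil4*, a Piwi protein of the male germ line that silences transposons, read 4.82 and 4.46 in TSS and 5.86 to 6.03 on SWT arrays. That no SWT array overlaps TSS in these genes was part of the rule that chose them. *Cplx1* (-1.43 ± 0.21, SE), *Dab1* (-1.47 ± 0.24) and *Elovl4* (-1.51 ± 0.25) act in synaptic release, reelin signalling and very long fatty acid synthesis. *Ccno*, *Evc*, *Actn3* and *Ripply1* had differences of -1.30, -1.23, -1.45 and -1.23. *Accsl* was detected on no TSS array and was at least 2.17-fold lower there.

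The 6 genes with the largest gap below all 14 clone arrays were chosen for it, and their gaps are a description. *Acta2*, smooth muscle actin, read 8.78 and 8.81 in TSS, against 10.30 and 10.27 in SWT clone 4, 9.82 and 9.90 in SWT clone 5 and up to 13.12 in S95 clone 2. *Pdzk1*, a scaffold for membrane transporters, read 5.22 and 5.14 in TSS and 6.52 to 7.21 on SWT arrays. The gap to the nearest clone array was -1.02 for both genes. *Kdelr3*, which returns proteins to the endoplasmic reticulum, and *Fkbp11*, a prolyl isomerase of that compartment, differed by -1.29 ± 0.64 and -1.02 ± 0.32 (SE), and *B4galnt2*, a glycosyltransferase gene, by -1.20 ± 0.88. *Fam78a* differed by -1.24 ± 0.64.

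**Figure D3:**
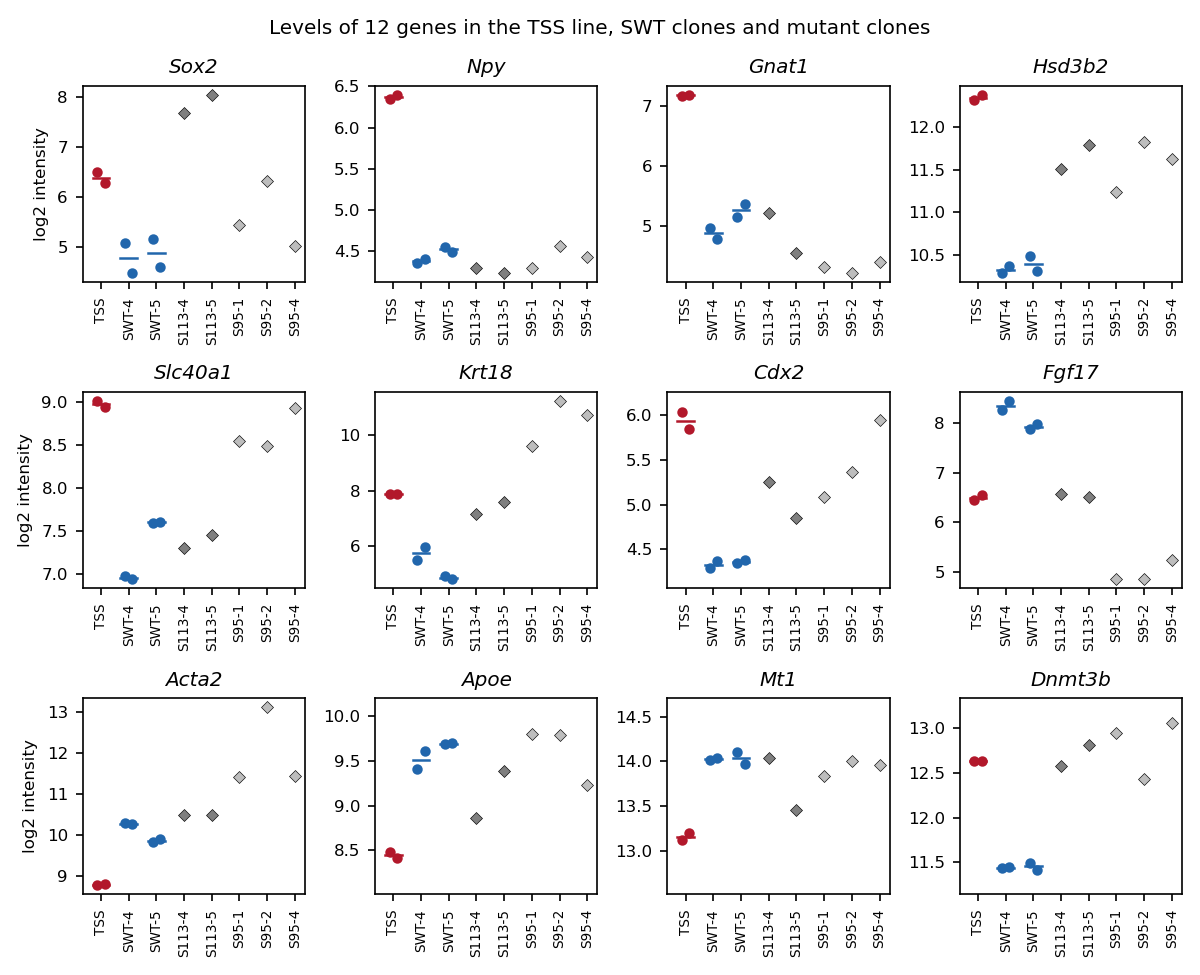
Log2 intensity of 12 genes by line. Circles are single arrays of TSS (red) and of SWT clones 4 and 5 (blue) with a bar at their mean, and diamonds are line means of the mutant clones (dark grey S113, light grey S95). *Npy* and *Gnat1* stand above, and *Acta2* and *Mt1* below, all other lines in TSS, while *Krt18*, *Cdx2*, *Fgf17* and *Dnmt3b* place TSS within or beside the range of the mutant clones and apart from SWT.

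Nuclear genes for subunits of the respiratory chain, which couples the oxidation of nutrients to ATP synthesis in mitochondria, read slightly lower in TSS. Of 70 tested, 56 had a negative difference, both TSS arrays lay below all 4 SWT arrays for 41 (25.4% of all genes did) and above them for 6 (24.2%), and the median was -0.21. No member was 2-fold apart and 0 passed the adjusted test in limma, while 16 were lower (4.94% of all genes were) and 2 higher (4.89%) at an unadjusted p under 0.05. The median was -0.25 against SWT clone 4 and -0.23 against SWT clone 5, and -0.17 with equal medians, where all genes had a median of 0.13. By complex, the arrays of TSS lay below those of SWT for 21 and above them for 3 of 33 genes of complex I, below for 1 and above for 1 of 3 of complex II, below for 3 of 8 of complex III and 6 of 10 of complex IV with 0 above in both, and below for 10 and above for 2 of 15 of complex V.

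*Ndufs6*, a subunit of complex I, read 12.15 and 12.28 in TSS, and 12.94 to 13.12 on SWT arrays. *Ndufa3*, another complex I subunit, read 9.87 and 10.12 in TSS and 10.82 to 11.10 on SWT arrays. The differences of these genes were -0.81 ± 0.19 and -0.94 ± 0.24 (SE), and those of *Ndufa1* (complex I) and *Uqcr10* (complex III) -0.67 and -0.56. Relative to the SWT mean, the median of the list was -0.05 and -0.11 in the S113 clones and -0.07 to -0.26 in the S95 clones. Among mitochondrial ribosomal proteins, which translate the chain's mitochondrial subunits, 29 of 69 lay below and 12 above all SWT arrays (25.4% and 24.2% of all genes). Their median of -0.11 turned to 0.02 with equal medians. The 1 member at least 2-fold apart, *Mrpl15*, read 6.74 and 6.94 in TSS and 4.79 to 6.08 on SWT arrays. Of 12 mitochondrial chaperones and proteases, whose median difference was 0.18, 0 were 2-fold apart.

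Trophectoderm genes, which mark the outer layer of the blastocyst, read higher in TSS than in SWT. Of 14 tested, 5 were at least 2-fold higher and 0 at least 2-fold lower, against 1.64% of all genes each way. Both TSS arrays lay above all SWT arrays for 9 and below for 0, against 24.2% and 25.4% of all genes. The median was 0.54, or 0.39 to 0.89 under the other scalings, and 3 were at least 2-fold higher with a normexp background of offset 50. *Krt18*, a keratin of simple epithelia, read 7.90 and 7.90 in TSS, against 5.53 and 5.99 in SWT clone 4 and 4.93 and 4.81 in SWT clone 5, a 6-fold difference (limma adjusted p = 0.36). Its partner *Krt8* read 9.72 and 9.61 in TSS, against 6.60 and 6.98 in SWT clone 4 and 8.20 and 8.22 in SWT clone 5, without overlap. *Cdx2*, a master regulator of the lineage, read 6.03 and 5.85 in TSS, was detected on no SWT array, and was at least 2.32-fold higher in TSS. *Peg10* and *Plac1*, both needed for the placenta, differed by 1.51 ± 0.31 and 2.04 ± 0.69 (SE). With 16 arrays and the line as a random block, *Krt18*, *Krt8*, *Cdx2* and *Peg10* passed with TSS higher, as 0.43% of all genes did. For only 1 of the 14 genes, *Tfap2c*, did TSS lie above all 14 clone arrays. The median relative to SWT was 0.57 and 0.63 in the S113 clones and 1.31 to 1.84 in the S95 clones, with TSS at 0.54 near S113. *Eomes*, which also marks the lineage, gave a difference of 0.22 ± 0.37 (SE). The part of trophectoderm-like cells, whose summed markers are given above, was not tested.

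For extraembryonic endoderm genes the direction of the median depended on the SWT clone. Of 25 tested, 3 were at least 2-fold higher in TSS (*Krt18*, *Krt8* and *Dab2*) and 1 at least 2-fold lower (*Apoe*), against 1.64% of all genes each way. The median was 0.62 against SWT clone 4 and -0.11 against SWT clone 5. *Gata6*, a regulator of primitive endoderm, read 8.50 and 8.51 in TSS, between 7.06 and 7.18 in SWT clone 4 and 9.16 and 9.48 in SWT clone 5. *Dab2*, an endocytic adaptor of endoderm, read 8.54 and 8.71 in TSS and 6.58 to 7.17 on SWT arrays. *Apoe*, the lipid carrier, read 8.49 and 8.41 in TSS and 9.41 to 9.70 on SWT arrays, and TSS lay below all 14 clone arrays.

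Differences of the core pluripotency genes were smaller than their errors for *Pou5f1*, *Nanog* and *Esrrb*. These errors come from the spread within all clone groups, and the S95 clones spread widely here. *Pou5f1* read 9.70 to 11.54 in S95 clones, against 11.50 and 11.60 in SWT clones 4 and 5. *Esrrb* read 8.69 to 10.79 in S95 clones, against 12.24 and 12.22 in SWT clones 4 and 5. A difference below its error is therefore no sign of equal levels in TSS and SWT. *Pou5f1*, which encodes OCT4, read 11.98 and 11.80 in TSS and 11.48 to 11.61 on SWT arrays, a difference of 0.34 ± 0.68 (SE), and both TSS arrays lay above all 14 clone arrays. *Nanog* read 11.83 and 11.95 in TSS and 11.57 to 11.99 on SWT arrays, so the groups overlapped, and *Esrrb* differed by -0.32 ± 0.77 (SE), with both TSS arrays below all 4 SWT arrays. *Sall4*, a zinc finger partner of OCT4, read 12.52 and 12.46 in TSS, against 11.09 and 11.24 in SWT clone 4 and 11.43 and 11.38 in SWT clone 5, and lay above all 14 clone arrays. Its other probes differed less, by 0.20 and 0.47. Of 20 naive pluripotency genes, 3 were at least 2-fold higher (*Sall4*, *Gbx2* and *Klf4*) and 1 at least 2-fold lower (*Tcl1*), against 1.64% of all genes each way. TSS lay above all SWT arrays for 6 of the 20 and below for 7 (24.2% and 25.4% of all genes), and the median was 0.14. *Fgf4*, an enhancer target of OCT4 and SOX2 that drives exit from the naive state, read 5.13 and 5.01 in TSS and 5.66 to 6.20 on SWT arrays.

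Of 12 enhancer targets of OCT4 and SOX2 tested, TSS lay above all SWT arrays for 5 and below for 2 (24.2% and 25.4% of all genes), with a median of 0.18. *Sox2* itself, at 1.56, was among the 5, though these cells have no working *Sox2* gene of their own. *Lefty1*, a Nodal inhibitor, read 10.65 and 10.66 in TSS and 11.40 to 11.58 on SWT arrays, and *Utf1*, a chromatin factor of ESCs, read 9.67 and 9.66 in TSS and 9.16 to 9.47 on SWT arrays. Among formative and primed genes, *Dnmt3b*, a de novo DNA methyltransferase, read 12.63 and 12.64 in TSS and 11.42 to 11.49 on SWT arrays. Its level in the mutant clones was 12.43 to 13.06, and SWT was the low group. *Sall2* read 4.79 and 4.82 in TSS and 6.02 to 6.34 on SWT arrays, and *Otx2*, a regulator of the primed state, differed by 0.65 ± 0.27 (SE). The median of the 14 tested members was 0.27.

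Signalling targets differed in both directions. For ERK, 5 of 12 tested genes lay above all SWT arrays and 1 below, against 24.2% and 25.4% of all genes. *Ier3*, an immediate early gene, read 7.93 and 7.89 in TSS and 8.60 to 8.77 on SWT arrays, with a gap of -0.67 to all 14 clone arrays. *Egr1* and *Fos*, immediate early transcription factors, lay above all 14 clone arrays, with differences of 0.65 and 1.19. For Nodal and BMP, 5 of 14 lay above all SWT arrays and 4 below, near the shares of all genes, and the median was 0.02. In this list 3 were at least 2-fold higher and 1 at least 2-fold lower, against 1.64% of all genes each way. The BMP targets *Id3* and *Id2* differed by 1.23 ± 0.24 and 1.25 ± 0.44 (SE), and *Tdgf1*, the Nodal co-receptor, by 1.00. *Lefty2*, a Nodal inhibitor and target, differed by -1.05. With a normexp background of offset 50, 0 of the 14 members were at least 2-fold higher, with *Id3* at 0.62 and *Id2* at 0.76, and a second, dimmer probe of *Id2* differed by 0.22. For LIF and STAT3, 8 of 14 lay above all SWT arrays and 2 below, against the same shares, with *Stat3* at 10.04 and 9.83 in TSS and 8.70 to 9.40 on SWT arrays.

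Among 14 metal response genes, the iron exporter *Slc40a1* and the metallothioneins, which buffer zinc and copper, lay on opposite sides. *Slc40a1* read 9.01 and 8.94 in TSS, against 6.97 and 6.93 in SWT clone 4 and 7.60 and 7.60 in SWT clone 5, a 3.25-fold difference (limma adjusted p = 0.30), and the S95 clones read 8.49 to 8.93. *Mt1* read 13.12 and 13.19 in TSS, against 14.02 and 14.04 in SWT clone 4 and 14.10 and 13.97 in SWT clone 5, and lay below all 14 clone arrays. *Mt2* read 7.36 and 7.38 in TSS and 7.83 to 8.79 on SWT arrays. The zinc exporter *Slc30a1* differed by -0.48 ± 0.25 and the zinc importer *Slc39a10* by 0.76 ± 0.23 (SE), each with TSS beyond all 14 clone arrays. The median of the list was -0.10.

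The promoters of both metallothioneins are shown because zinc acts on them through the metal response element, bound by MTF1. Its core was searched as TGCACNC and TGCGCNC on both strands, in the same windows. It was found in 5 of the 9 tested members of the list with a promoter (55.6%), against 39.9% of all tested genes with a promoter and 25.7% of all promoters. Capitals mark 3 matches in *Mt1* (chr8:94178839-94179138, plus strand) and 4 in *Mt2* (chr8:94172368-94172667, plus strand).
Mt1: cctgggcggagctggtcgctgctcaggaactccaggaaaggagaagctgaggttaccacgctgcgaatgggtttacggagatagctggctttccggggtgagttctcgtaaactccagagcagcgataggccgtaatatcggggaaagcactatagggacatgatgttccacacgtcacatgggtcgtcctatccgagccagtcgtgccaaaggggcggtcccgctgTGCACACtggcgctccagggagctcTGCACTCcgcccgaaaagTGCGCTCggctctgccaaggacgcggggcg
Mt2: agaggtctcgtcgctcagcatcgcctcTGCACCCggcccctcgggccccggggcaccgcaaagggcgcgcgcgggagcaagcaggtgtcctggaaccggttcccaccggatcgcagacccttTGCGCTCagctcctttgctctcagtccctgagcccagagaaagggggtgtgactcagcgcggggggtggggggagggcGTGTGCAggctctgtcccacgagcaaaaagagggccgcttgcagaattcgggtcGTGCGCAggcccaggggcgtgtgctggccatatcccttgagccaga

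In the list of ATF4 targets and the integrated stress response, 8 of 27 genes lay above and 8 below all SWT arrays (24.2% and 25.4% of all genes), and the median was -0.05. *Atf4* itself read 6.82 and 6.66 in TSS and 5.08 to 6.18 on SWT arrays, while *Ddit3*, a proapoptotic target, read 6.45 and 6.53 in TSS and 7.09 to 8.25 on SWT arrays. *Vldlr*, a lipoprotein receptor gene of this list, lay below all 14 clone arrays with a difference of -0.88. The medians of glycolysis and hypoxia, cholesterol synthesis and the p53 response were 0.06, -0.13 and -0.09, with 0 genes 2-fold apart in these 3 lists. For 15 mitosis genes the median was 0.16, with TSS above all SWT arrays for 6 and below for 0 (24.2% and 25.4% of all genes). For 10 genes of the 2-cell-like state the median was 0.41, and 6 lay above and 1 below all SWT arrays (24.2% and 25.4% of all genes). Of the 10, *Tcstv1* (7.12 and 7.16 in TSS, 5.11 to 5.86 in SWT), *Tcstv3* and *Zscan4c* were at least 2-fold higher, as 1.64% of all genes were. Both S113 clones and S95 clones 1 and 4 read above TSS for each of these genes, and S95 clone 2 for *Tcstv1* alone. Relative to SWT, the list median was 1.24 and 1.47 in the S113 clones and 0.24 to 2.23 in the S95 clones. For 13 germ line genes the median was 0.47, and 7 lay above and 2 below all SWT arrays, against the same shares. Of these genes, *Rhox6*, on the X chromosome, was at least 2-fold higher in TSS (1.33 ± 0.69, SE), as 1.64% of all genes were. By chromosome, the median difference ran from -0.07 on chromosome 8 to 0.03 on chromosome 1.

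**Figure D4:**
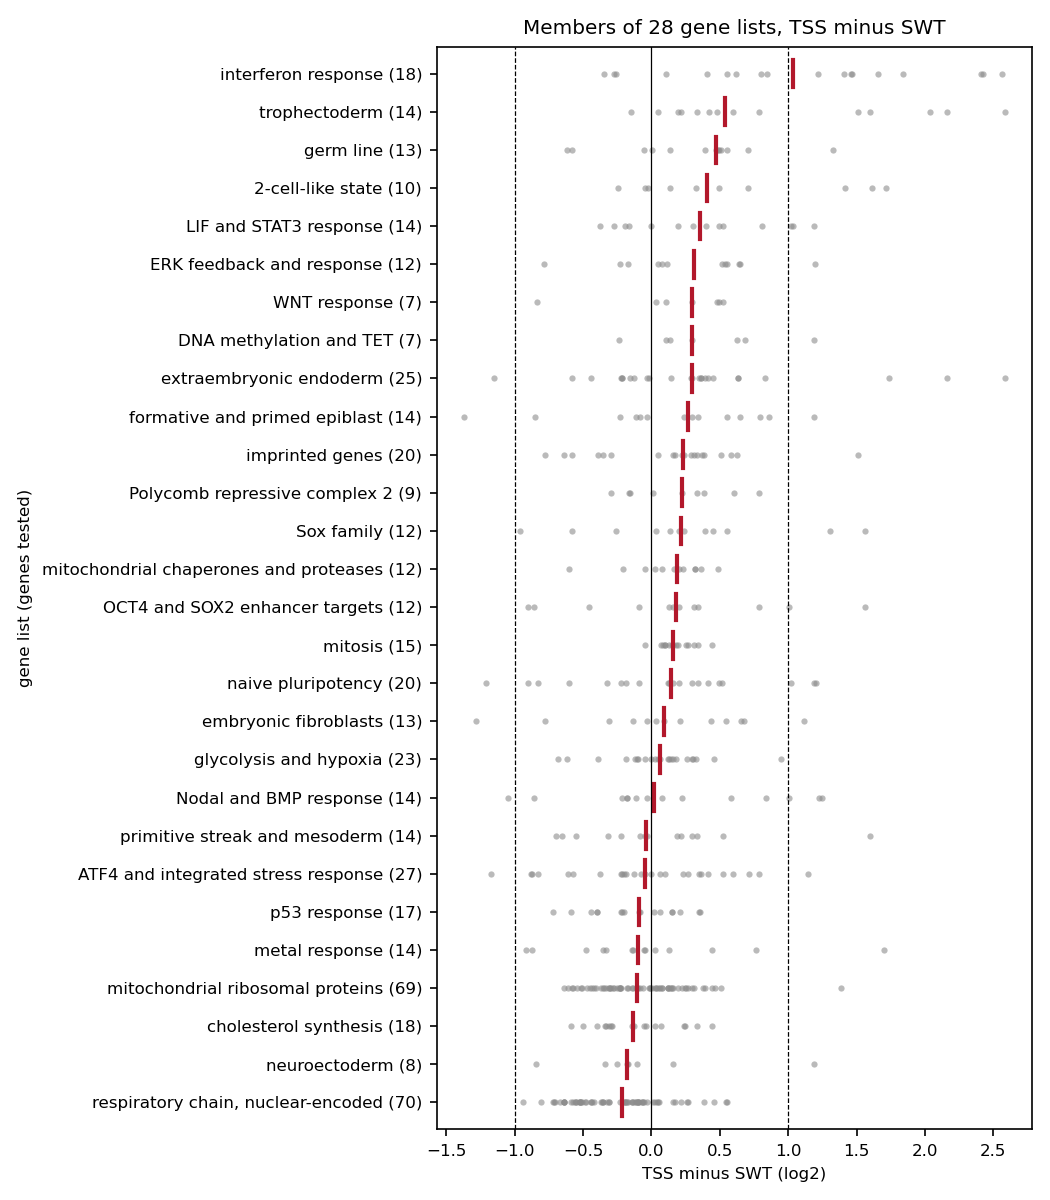
Difference between TSS and SWT (log2, horizontal axis) for the tested members of 28 gene lists (grey points), with the number tested and the median of each list (red bar). Lists are ordered by median, from interferon response at 1.03 to respiratory chain at -0.21, and dashed lines mark a 2-fold difference.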

How the data were processed

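RNA of 8 *Sox2*-null ESC lines, 300 ng per sample, was hybridized to 16 Illumina mouse arrays, 2 a line. The authors deposited raw bead intensities and detection p-values (25697 probes), and log2 values that they had normalized. The submitters' processing notes name BeadStudio 3.2, RMA and lumi.

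The neqc function of limma 3.58.1 (R 4.3.3) took background from the detection p-values, added an offset of 16, and gave quantile normalized log2 intensities. A probe was kept where both arrays of 1 line or more detected it (13680 probes), and each of 10001 genes was read from its brightest probe. Of 23978 probes with a gene, 23962 matched RefSeq by Entrez identifier. Arrays of a line were averaged, and limma fitted a mean per group to 8 lines. The contrast was TSS minus SWT, two-sided, adjusted by Benjamini-Hochberg over all genes, and TSS was assumed to vary like the clones. The number of arrays limits the precision. The fit was tested on simulated data.

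Named were *Sox2*, *Pou5f1*, *Nanog* and *Esrrb*; by smallest p, 12 genes at least 2-fold above and 12 below SWT with TSS arrays beyond all SWT arrays, and at most 4 of each list; and 6 with the largest gap above and 6 below the clones. List members beyond that were named after their values were seen. The 28 lists and these rules were chosen with earlier results of these data known. Alternatives changed scaling, filter, probe rule, fit and lines.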

Additional observations from a re-analysis of the deposited data

How the results depend on the processing

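No gene passed in the fit of line averages under the other scalings, the stricter filter, a mean over probes of one gene, robust eBayes with a trend, or without any line or TSS array, and without a detection filter 0 passed with TSS higher and 1 lower. With arrays in place of line averages, 43 passed with TSS higher and 52 lower when the line was a random block, 36 and 44 with the replicate number added as a replicate block, and 615 and 628 when the 16 arrays counted as independent. The replicate numbers did not pair the lines, as deviations of same-numbered arrays correlated between -0.18 and 0.2, over 0.1 in 3 of 28 pairs. Genes at least 2-fold above and below numbered 505 and 520 with the deposited log2 values, 67 and 54 with a normexp background of offset 50, and 308 and 69 with a median shift. Genes with TSS above and below all clone arrays numbered 1028 and 310 with a median shift, 1312 and 1400 without the S95 lines, 2421 and 2542 with only TSS and SWT, and 657 to 898 above and 505 to 745 below when a clone or a TSS array was left out, with 728 below without TSS array 1 and 745 without TSS array 2. The mean distance of TSS to the SWT clones, 0.45, was 0.68 with the deposited values, 0.33 with normexp and 0.36 without a filter. A filter of 2 lines, chosen after seeing the data, left 160 genes above and 164 below. The sign turned for *Tdg* with a median shift (0.063), and when lines or arrays were left out *Nanog* ran from -0.0117 (without SWT clone 4) to 0.274, *Hsd17b7* from -0.578 to 5.147e-05 (without SWT clone 4), *Notum* from -0.127 (without SWT clone 4) to 1.079, and *Pfkfb3* from -0.0534 (without TSS array 1) to 0.709. Causes were not tested. Besides these 5, and counted once per gene and setting, 151 differences of named genes passed in a fit where they had not in the main one. List medians, counted once per list and setting, moved in 57 cases and did not in 559. The limit was the standard deviation of a list's 2 medians, TSS against SWT clone 4 and TSS against SWT clone 5.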

Other observations

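Of the genes tested, 22 were detected on both TSS arrays and on none of the 14 clone arrays, and in each other line the count was 7 to 62. Among the 22 were *Tgm3* and the interferon-inducible genes *Irf7*, *Oas1b*, *Gbp7* and *Epsti1*, named after their values were seen. *Epsti1* read 4.98 and 5.32 in TSS and was detected on no SWT array. In reverse, 4 genes were detected on all clone arrays and on no TSS array, 1 of them *Sprr2k*, a gene of cornified epithelia, which was at least 1.93-fold lower in TSS.

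Another 3 genes with large differences were chosen after their values were seen. *Wnt7b*, a Wnt ligand, read 7.28 and 7.34 in TSS, against 5.32 and 5.18 in SWT clone 4 and 4.58 and 4.37 in SWT clone 5, and lay above all 14 clone arrays. *Fgf10* differed by 2.08 ± 0.39 (SE) and stood below the S95 clones. *Slc46a3*, a lysosomal transporter gene, had the largest negative difference, -2.40 ± 0.68 (SE), with 5.25 and 5.00 in TSS and 6.76 to 8.22 on SWT arrays.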
